A study of Homo sapiens with 6 samples.

Results

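Serine, asparagine and folate one-carbon metabolism was examined through 10 enzyme genes, PHGDH, PSAT1, PSPH, ASNS, SHMT1, SHMT2, MTHFD1, MTHFD2, ALDH1L2 and CTH, which were chosen by name for their place in these pathways. All 10 were among the 26485 genes of the count table, and 8 of them were among the 12107 genes tested after a filter on low counts. The RNA came from H9, an established human cell line of cutaneous T lymphocytes, grown in the same serum-containing medium for both groups. One group of 3 libraries was made after 24 h of PA4 at a dose of 1 µM and the control group of 3 libraries after the vehicle DMSO. PA4 is a code name for a compound that the series title calls a derivative of berbamine. No label states whether the replicates of a group were grown apart, and the spread that the p-values rest on may therefore be technical.

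Cells make serine from a glycolytic intermediate in a short pathway. PHGDH oxidises 3-phosphoglycerate, PSAT1 transfers an amino group to the product, and PSPH removes the phosphate. Serine hydroxymethyltransferases, SHMT1 in the cytosol and SHMT2 in mitochondria, then pass a carbon from serine to folate, and MTHFD1, MTHFD2 and ALDH1L2 change the oxidation state of the folate-bound carbon that feeds nucleotide synthesis, mitochondrial translation and NADPH production. ASNS makes asparagine from aspartate and glutamine. CTH splits cystathionine to give cysteine. Several of these genes are known targets of ATF4, a transcription factor that is translated when amino acids run short or the endoplasmic reticulum is stressed, and proliferating T cells and lymphoid tumours are known for their demand for serine, asparagine and folate carbon.

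The promoters of 3 enzymes are shown, chosen by the values below. ASNS had the clearest difference between the groups, PSAT1 was nearly without counts, and PHGDH is the abundant enzyme of the step before it. Whether these sequences bear on the counts was not tested. Each line gives the 250 bases before the RefSeq start in GRCh38.p14, 5′ to 3′ on the gene's strand. Capitals mark the C/EBP-ATF response element core TGATGNAA, the type of site through which ATF4 is known to act, in ASNS, and the CCAAT box CCAAT in PSAT1 and PHGDH.
ASNS (chr7:97872409-97872658, minus strand): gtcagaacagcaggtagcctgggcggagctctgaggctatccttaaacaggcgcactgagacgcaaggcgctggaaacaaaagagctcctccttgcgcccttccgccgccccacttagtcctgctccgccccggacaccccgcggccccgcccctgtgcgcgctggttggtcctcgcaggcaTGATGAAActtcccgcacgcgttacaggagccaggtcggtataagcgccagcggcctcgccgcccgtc
PSAT1 (chr9:78296875-78297124, plus strand): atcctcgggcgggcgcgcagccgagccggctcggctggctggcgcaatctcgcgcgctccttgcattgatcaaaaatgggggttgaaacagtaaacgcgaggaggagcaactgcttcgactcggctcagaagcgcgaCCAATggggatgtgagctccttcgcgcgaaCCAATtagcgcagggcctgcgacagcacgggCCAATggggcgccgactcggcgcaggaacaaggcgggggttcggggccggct
PHGDH (chr1:119711684-119711933, plus strand): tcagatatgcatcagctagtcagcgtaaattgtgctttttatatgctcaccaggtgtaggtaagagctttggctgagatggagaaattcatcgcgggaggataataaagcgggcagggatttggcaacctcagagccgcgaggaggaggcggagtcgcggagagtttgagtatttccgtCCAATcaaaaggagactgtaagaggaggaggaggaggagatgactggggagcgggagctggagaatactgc

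RefSeq windows were matched for 7 of the 10 enzymes, namely PHGDH, PSAT1, ASNS, SHMT1, MTHFD1, MTHFD2 and CTH, and ASNS had 2 windows. Both strands were searched for TGATGNAA, for the E-box CACGTG bound by MYC and its partners, and for CCAAT, and no match of one motif overlapped a match of another. TGATGNAA was found in the first ASNS window alone, 68 to 61 bases before the start, and 3.14% of the 35116 windows of that length held it. CACGTG was found in MTHFD1 alone, 15 to 10 bases before the start, against 6.34% of all windows. CCAAT was found in PHGDH, PSAT1, SHMT1, MTHFD1, MTHFD2 and CTH, against 32.0% of all windows, and PSAT1 held 3 copies. The PSAT1 window had 30 CpG dinucleotides, the most of the 8 windows, against 11 in that of PHGDH and a median of 11 over all windows. A match is a description of these letters and not of binding.

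Library totals were 18282212 to 22875191 counts with PA4 and 19033853 to 19260434 counts in control. Of 12 T cell markers, 10 had a mean of at least 1 CPM (a gene's count scaled to the TMM-adjusted library size), while CD4 stayed under 1 CPM and CD2 had 0 CPM with PA4 and 0.0173 CPM in control. Markers of myeloid cells and fibroblasts summed to at most 1.78 CPM in any library. B cell markers summed to 19.5 to 21.4 CPM with PA4 and 18.5 to 21.9 CPM in control, natural killer markers to 16.0 to 18.8 and 17.8 to 20.3 CPM in that group order, and epithelial markers, mostly EPCAM, to 140.5 to 142.4 and 133 to 136.7 CPM. Control replicates 1 and 3 stood apart by base composition: across 8564 genes, the Spearman rho between transcript GC content and a gene's deviation from its group mean was 0.785 in control replicate 1 and -0.712 in control replicate 3, against -0.503 to 0.393 in the other 4 libraries. Genes are not independent replicates, and these values are a description. Values without those libraries are given beside the results or in the account of the processing alternatives.

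Among the 10 enzymes the mitochondrial folate enzyme MTHFD2 was the most abundant message and PSAT1 and ALDH1L2 were nearly absent. Levels between genes were compared as TPM, which divides counts by the deposited gene length. MTHFD2 averaged 568.5 ± 5.75 TPM with PA4 and 558 ± 22.2 TPM in control (SD, n = 3 each), above 99.0% of all genes of the table. MTHFD1, the cytosolic enzyme with the matching folate activities, followed at 314.4 ± 1.54 TPM with PA4 and 313.9 ± 4.83 TPM in control. SHMT2 stood at 261 ± 9.79 and 254 ± 19.1 TPM, ASNS at 174 ± 0.279 and 161 ± 3.02 TPM, PHGDH at 144 ± 4.37 and 140 ± 9.11 TPM, and SHMT1 at 134 ± 0.773 and 134 ± 2.99 TPM, with PA4 and in control in that order. PSPH at 41.7 ± 2.28 and 40.3 ± 1.75 TPM and CTH at 25.9 ± 0.388 and 26.2 ± 2.52 TPM were the lowest of the 8 tested enzymes. Ranges over the 6 libraries did not overlap between neighbours in this order, except between PHGDH and SHMT1 and between PSAT1 and ALDH1L2.

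**Figure D1:**
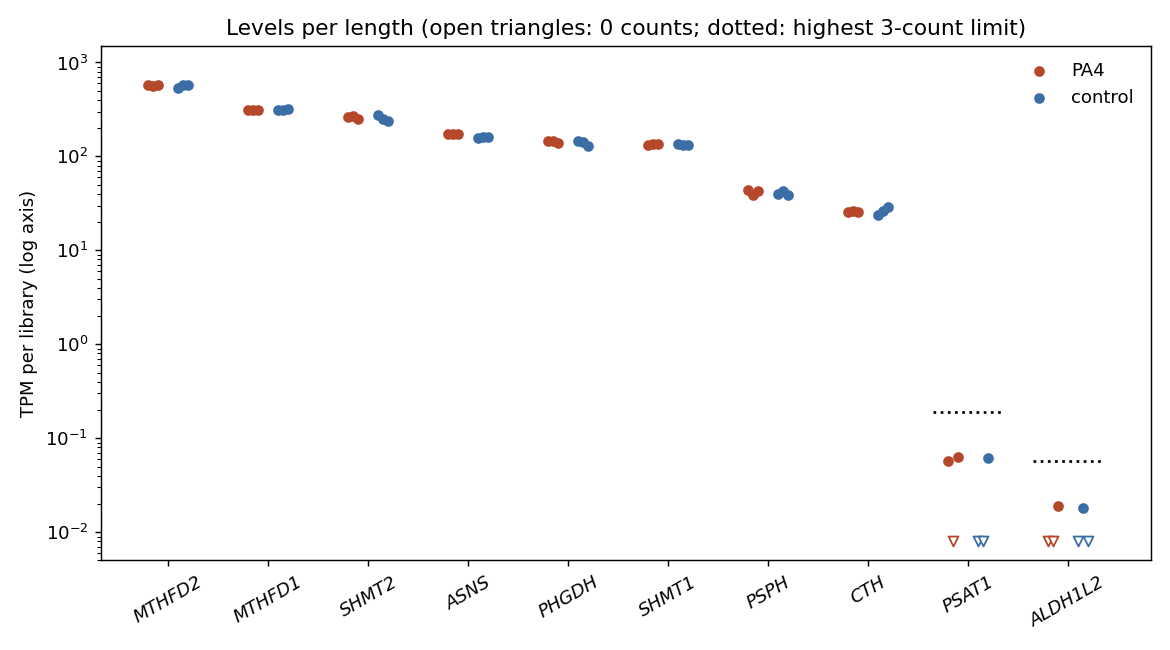
TPM of the 10 enzymes in each library on a log axis, PA4 to the left of control, ordered by the mean over 6 libraries. MTHFD2 lies at 533 to 573 TPM, whereas PSAT1 and ALDH1L2 lie under the level of 3 counts, drawn as dotted lines, with open triangles for libraries at 0 counts.

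Of the RNAs for the serine synthesis enzymes, that of the middle step was nearly missing from the counts. PSAT1, on chromosome 9 of GRCh38 at 78297125 to 78330093, had 1, 0 and 1 counts in PA4 replicates 1 to 3, against 0, 0 and 1 counts in control replicates 1 to 3. Each library was therefore at or under the floor of 3 counts, which corresponds to 0.152 to 0.191 TPM, and no fold change was computed. PHGDH, the enzyme of the step before, lay at least 704-fold above that floor in the library where the gap was smallest. Of the protein-coding genes matched by current symbol, the nearest on either side of PSAT1 had counts in all libraries. These were 747 to 874 for CEP78 and 133 to 184 for TLE4, both named after their values were seen. These limits cover counting error only.

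PHGDH, on chromosome 1 at 119711934 to 119744215, had 113, 113 and 107 CPM in the PA4 libraries, against 113, 111 and 99.0 CPM in the control libraries. The groups overlapped, and control replicate 3 was the lowest library. Its log2 fold change was 0.043 ± 0.051 (SE), with a 95% interval of 0.956-fold to 1.11-fold. PSPH, on chromosome 7 at 56011064 to 56051444, had 35.3, 31.7 and 34.3 CPM with PA4, against 32.0, 34.4 and 31.6 CPM in control. These values were interleaved, with a log2 fold change of 0.046 ± 0.064 (SE) and an interval of 0.94-fold to 1.13-fold. The value was 0.030 without control replicate 1, 0.022 without control replicate 3, 0.013 without PA4 replicate 1 and 0.095 without PA4 replicate 2. Neither gene was called in edgeR's quasi-likelihood test, with adjusted p-values of 0.993 for each.

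ASNS, on chromosome 7 at 97851677 to 97928441, was the 1 enzyme whose groups did not overlap. It had 168.4, 168.1 and 167.7 CPM in the PA4 libraries, against 153, 158 and 156 CPM in the control libraries. All 3 PA4 libraries lay within 1 CPM of each other and above every control library. In RNA from whole cultures, more RNA per cell and a shift in which cells made up the culture cannot be told apart. The log2 fold change was 0.11 ± 0.04 (SE), or 1.08-fold with a 95% interval of 1.03-fold to 1.14-fold. The unadjusted p was 0.00602, in place 127 of the 12107 tested genes, and the adjusted p of edgeR's quasi-likelihood test was 0.574, so the gene was not called. DESeq2 gave an adjusted p of 0.717 and limma-voom one of 0.588, over a range of 0.0577 to 1.000 in the 15 alternatives with a gene test, and 0 of the 15 called it. Fits that also took out the trend with GC content gave the smallest adjusted p-values, 0.0638 alone and 0.0577 with a replicate block. ASNS also shares 44.6% of its exon bases with a read-through transcript on the same strand, AC079781.5 in GENCODE release 29. No gene of that name was among the counted genes, and how the authors' counting assigned such reads is not given in the sources used here. ATF4, the known regulator whose type of site stands in the ASNS window above, had 343.8, 343.3 and 332.8 CPM with PA4. The control libraries had 351.6, 346.8 and 332.3 CPM. Its log2 fold change was -0.015 ± 0.034 (SE), with an adjusted p of 0.997 in edgeR. These are counts of RNA, and the protein and activity of ATF4 were not measured. Whether ATF4 bears on the ASNS counts was not tested.

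**Figure D2:**
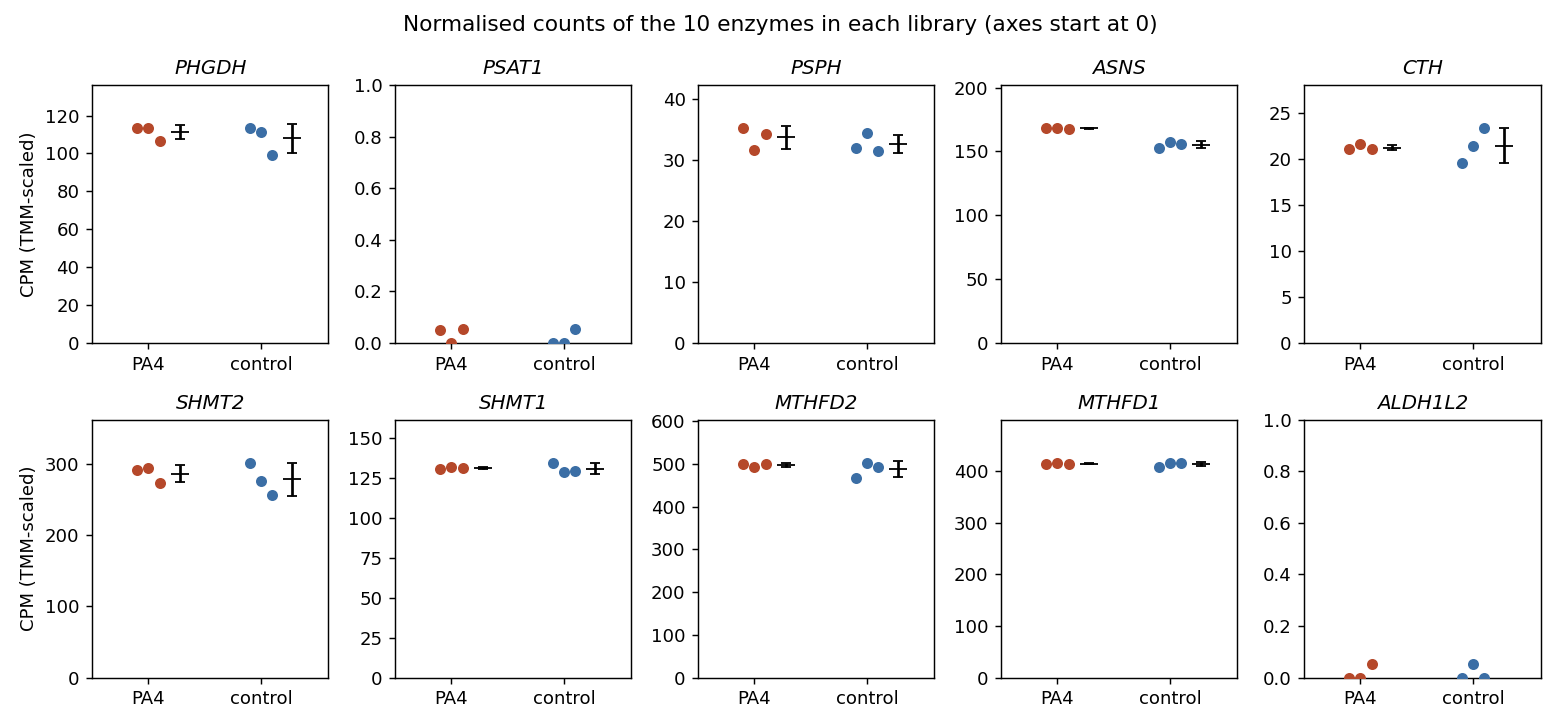
TMM-scaled CPM of each enzyme in each library, PA4 left and control right, with the mean and SD of 3 libraries as black bars for the 8 tested enzymes. ASNS is the panel in which the PA4 points, at 167.7 to 168.4 CPM, all lie above the control points, at 153 to 158 CPM.

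The serine hydroxymethyltransferases and the folate dehydrogenases showed no called difference. SHMT2, on chromosome 12 at 57229711 to 57234935, had 291, 294 and 273 CPM with PA4, against 301, 276 and 256 CPM in control. Both the highest and the lowest library were controls, namely replicates 1 and 3. Its log2 fold change was 0.041 ± 0.049 (SE), with an interval of 0.958-fold to 1.11-fold. Without control replicate 1 it was 0.10 with an unadjusted p of 0.0128 and an edgeR adjusted p of 0.310, and without control replicate 3 it was -0.014. SHMT1, on chromosome 17 at 18327873 to 18363550, had 130.6, 131.5 and 130.8 CPM with PA4, against 134.4, 128.5 and 128.9 CPM in control. The PA4 libraries lay inside the range of the control libraries, with a log2 fold change of 0.0035 ± 0.039 (SE).

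MTHFD2, on chromosome 2 at 74198615 to 74217565, is known as a mitochondrial enzyme of rapidly dividing and tumour cells. It had 499.97, 491.4 and 499.1 CPM with PA4, against 467.6, 502.5 and 492.8 CPM in control. Control replicate 1 was the lowest library and control replicate 2 the highest, so the groups overlapped, and the log2 fold change was 0.027 ± 0.033 (SE). MTHFD1, on chromosome 14 at 64388353 to 64460025, had 413.8, 416.2 and 413.7 CPM with PA4, against 408.8, 416.4 and 416.0 CPM in control. It had the narrowest interval of the 8 enzymes, 0.959-fold to 1.05-fold around a log2 fold change of 0.0029 ± 0.030 (SE). On the opposite strand SLC4A5 shares 27.2% of the exon bases of MTHFD2 but had 2 to 14 counts per library, and SMCR8 shares 2.69% of those of SHMT1 with 2625 to 3352 counts. The strand setting of the counting is not given in the sources used here.

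ALDH1L2, the mitochondrial formyltetrahydrofolate dehydrogenase on chromosome 12 at 105019790 to 105084458, had 0, 0 and 1 counts in the PA4 libraries, against 0, 1 and 0 counts in the control libraries. All 6 libraries were at or under the floor of 3 counts, or 0.0456 to 0.0572 TPM, so no fold was computed. On the opposite strand C12orf45, at 356 to 463 counts, shares 1.70% of the exon bases of ALDH1L2. Further genes on either side, SLC41A2 at 43 to 64 counts and APPL2 at 293 to 361 counts, were found by current symbol. These genes were named after their values were seen. Its cytosolic paralog ALDH1L1 averaged 0.0183 CPM with PA4 and 0.0173 CPM in control, so both formyltetrahydrofolate dehydrogenase genes were at or under the floor.

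CTH, on chromosome 1 at 70411268 to 70439851, had 21.0, 21.6 and 21.0 CPM in the PA4 libraries, against 19.5, 21.4 and 23.4 CPM in the control libraries. The PA4 libraries again lay inside the control range. The log2 fold change was -0.013 ± 0.077 (SE), with an interval of 0.885-fold to 1.11-fold, the widest of the 8. CBS, which makes the cystathionine that CTH splits, averaged 0.273 CPM with PA4 and 0.331 CPM in control and did not pass the filter on low counts.

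Counted over the enzymes, 0 of the 8 tested were called higher or lower at an adjusted p under 0.05 by edgeR, DESeq2 or limma-voom, against 0.231% of all tested genes called by edgeR (0.215% higher and 0.0165% lower). By edgeR's unadjusted p, at 0.05, 1 was higher and 0 lower, where 2.69% of all tested genes were higher and 2.6% lower. Without control replicate 1 the number higher was 2, ASNS and SHMT2. That fit also called more of all tested genes at an adjusted p under 0.05, 50 higher and 24 lower. Its share of all tested genes at an unadjusted p under 0.05 was not computed. The groups did not overlap in ASNS alone, which was higher, against 5.91% of all tested genes higher in this way and 5.31% lower. The fold change was positive in 7 of 8 enzymes, against 47.6% of all tested genes. Of the 7, SHMT1 at 0.0035 ± 0.039 and MTHFD1 at 0.0029 ± 0.030 log2 (SE) were far smaller than their SE. Without control replicate 3 PHGDH, SHMT1 and SHMT2 were negative and CTH was positive. The median of the enzymes was 0.034 log2 against -0.0040 over all tested genes. That median was 0.019 without PA4 replicate 1 and 0.014 without control replicate 3. PSAT1 and ALDH1L2, which did not pass the filter, are not part of these counts. The 95% interval lay within 1.2-fold in both directions for all 8 tested enzymes and for 63.7% of all tested genes. The median SE was 0.044 log2 for these enzymes and 0.069 log2 over all tested genes, so these shares also reflect precision.

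**Figure D3:**
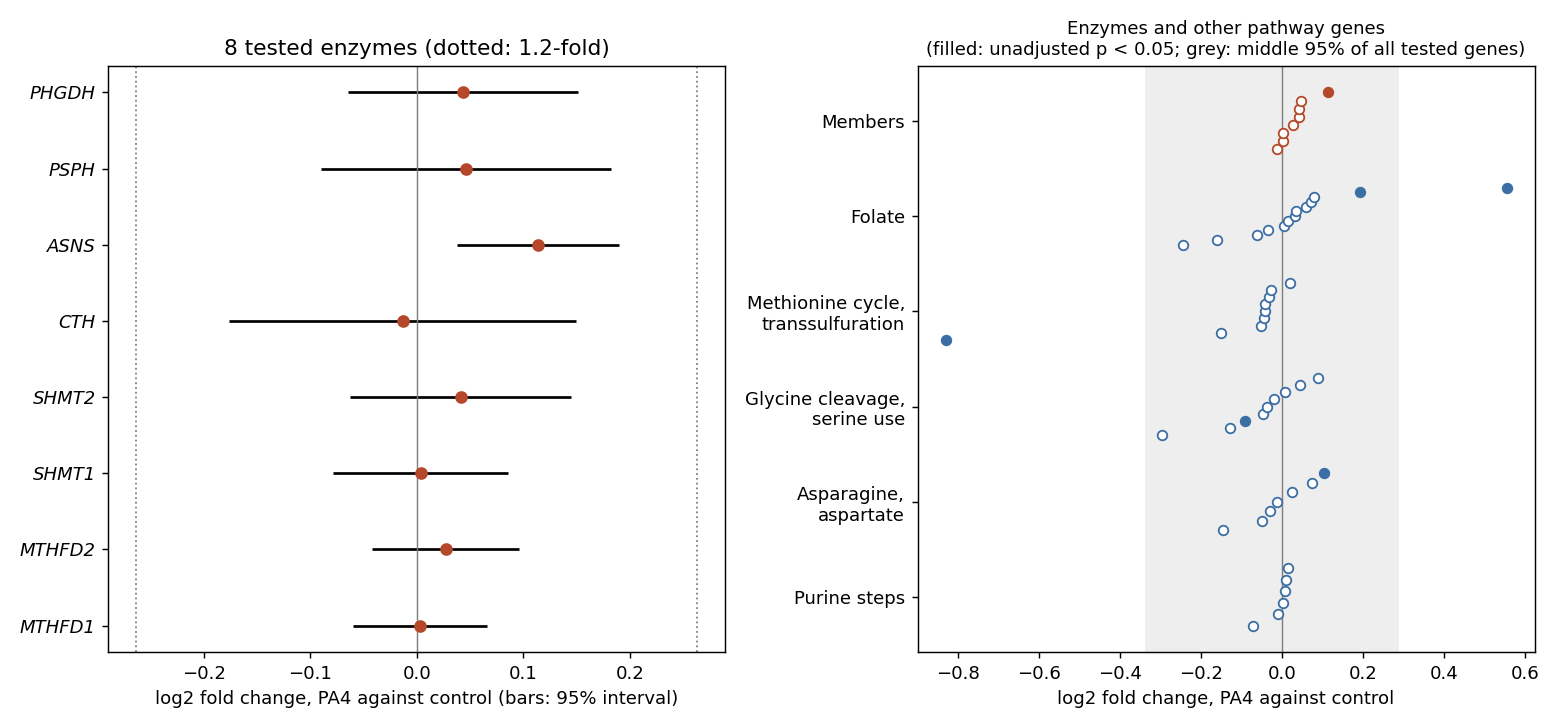
Left, log2 fold changes of the 8 tested enzymes, PA4 against control, with 95% intervals, all inside the dotted lines at 1.2-fold and with that of ASNS alone clear of 0. Right, the same values for the 8 enzymes and the 44 tested genes of the one-carbon pathway list, filled where the unadjusted p was under 0.05, over the middle 95% of all tested genes in grey (-0.33 to 0.29).

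The balance of mitochondrial and cytosolic isozymes did not differ beyond the spread between libraries. The log2 ratio of SHMT2 to SHMT1 in TPM was 0.99, 1.00 and 0.89 with PA4, against 1.00, 0.94 and 0.83 in control, which is a mean ratio of 1.95 and 1.89 in that order. The groups overlapped, and the difference of 0.039 had a p of 0.70 in an exact permutation test over the 6 libraries, two-sided, whose smallest possible p is 0.10. MTHFD2 over MTHFD1 averaged 0.85 ± 0.02 log2 with PA4 and 0.83 ± 0.04 log2 in control (SD, n = 3 each), with an exact permutation p of 0.60, and the difference of 0.025 was 0.0034 without control replicate 1. MTHFD1L, the mitochondrial synthetase that works beside MTHFD2, stood below MTHFD1 at -0.51 ± 0.02 log2 with PA4 and -0.54 ± 0.04 log2 in control (SD, n = 3 each), with an exact permutation p of 0.40. With 3 libraries against 3, this test cannot pass 0.05.

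The spread between control libraries ran in opposite orders in the enzyme with the highest GC content and in one with a low GC content. In control replicates 1, 2 and 3 SHMT2, with 57.0% GC in its longest transcript, stood at 0.098, -0.027 and -0.14 log2 from its mean over 6 libraries. CTH, with 43.3% GC, stood at -0.13, 0.0083 and 0.13, in the opposite order. After each library's trend with GC was taken out, the values for SHMT2 were 0.016, -0.016 and -0.070, and those for CTH -0.088, 0.0037 and 0.10. Other enzymes followed this pattern in part. PHGDH, at 52.3% GC, fell in the same order as SHMT2, at 0.053, 0.024 and -0.14 in control replicates 1, 2 and 3. SHMT1, at 52.6% GC, stood at 0.040, -0.025 and -0.020 in these libraries. MTHFD2, at 41.4% GC, stood at -0.074, 0.030 and 0.0020, and in control replicate 3 at -0.041 after the correction. The SD within groups was smaller after this step in 7 of 8 enzymes, by an amount that varied, at 0.038 log2 with the correction and 0.093 without for SHMT2, 0.063 and 0.083 for PHGDH, and 0.071 and 0.093 for CTH. For PSPH it was 0.076 with the correction and 0.075 without. The trend was fitted to these same libraries, so a smaller SD is partly built into the step. The share of all tested genes with a smaller SD was not computed. The difference between the groups stayed close for ASNS, at 0.11 log2 with the correction and 0.11 without. That of MTHFD1 was -0.0029 with the correction and 0.0029 without.

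**Figure D4:**
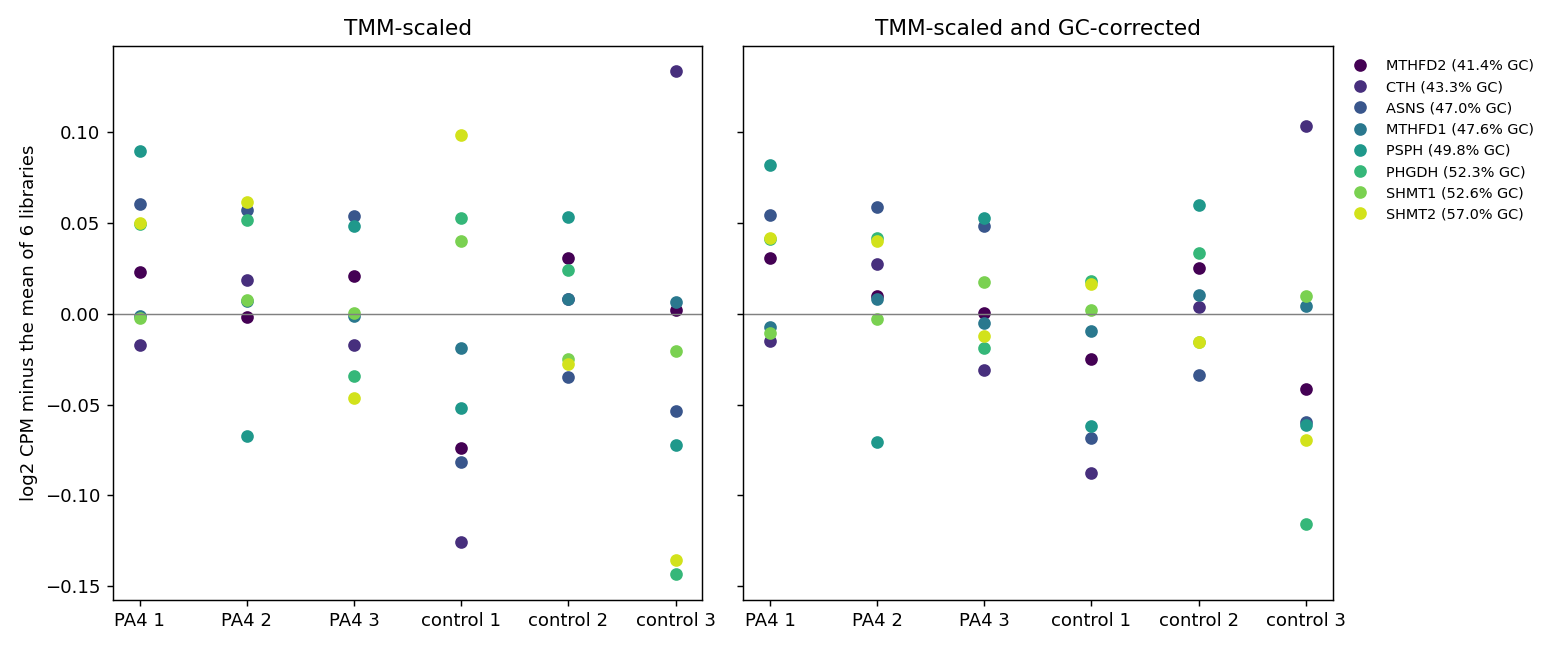
log2 CPM of the 8 tested enzymes in each library minus the mean over 6 libraries, coloured from low GC (dark, MTHFD2 at 41.4%) to high GC (bright, SHMT2 at 57.0%), with TMM scaling alone on the left and after GC correction on the right. SHMT2 and CTH lie on opposite sides of 0 in control replicates 1 and 3 on the left, and the SHMT2 points lie closer to 0 on the right.

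Other genes of the pathway were taken from a list of 55 genes of folate, methionine, glycine, asparagine and purine metabolism, all in the table and 44 of them tested. In edgeR, DESeq2 and limma-voom 0 of the 44 were called, while 3 were higher and 2 lower by edgeR's unadjusted p at 0.05, with 20 of 44 positive and a median of -0.016 log2. Over all tested genes edgeR called 0.231%, and by its unadjusted p at 0.05 2.69% were higher and 2.6% lower. The fold change was positive in 47.6% of all tested genes, with a median of -0.0040 log2. GLUL, glutamine synthetase, was at 0.10 ± 0.03 log2 (SE), with 286 CPM with PA4 and 267 CPM in control and an edgeR adjusted p of 0.562. GLDC, the glycine decarboxylase of the glycine cleavage system, was at -0.090 ± 0.036 (SE) with 174 CPM with PA4 and 186 CPM in control and an edgeR adjusted p of 0.848. Among the genes at that unadjusted p were also MTHFS and GNMT, with means under 2 CPM, named after their values were seen.

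By branch, 9 of 13 tested folate genes were positive with a median of 0.033 log2. TYMS, the thymidylate synthase, was at 0.016 ± 0.033 (SE), and MTHFD1L was at 0.033 ± 0.033 (SE). MTHFD2L, a paralog of MTHFD2, averaged 1.67 CPM with PA4 and 1.95 CPM in control. In the methionine cycle and transsulfuration 1 of 9 was positive with a median of -0.042, in glycine cleavage and serine use 3 of 9 with a median of -0.036, in asparagine and aspartate metabolism 3 of 7 with a median of -0.012, and in the purine steps 4 of 6 with a median of 0.0049. Of all tested genes 47.6% were positive, with a median of -0.0040 log2. No test was run over a branch, and these signs are a description. MTAP, which recovers methionine from methylthioadenosine, the serine dehydratase gene SDS and the asparaginase gene ASPG were at 0 CPM in both groups, and were named after their values were seen.

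The genes whose values over the 6 libraries lay closest to the mean profile of the 8 tested enzymes were ANKRD40, PSMD11 and HDAC1, with root mean square differences of 0.0076, 0.0091 and 0.0092 log2, out of 8556 other genes with a mean of at least 10 CPM. The profile itself spanned only -0.035 log2 in control replicate 3 to 0.031 log2 in PA4 replicate 1. It is a mean in which enzymes of opposite sign partly cancel. In control replicates 1 and 3 SHMT2 stood at 0.098 and -0.14 log2, and CTH at -0.13 and 0.13. MTHFD1 stayed nearer the profile there, at -0.019 and 0.0064. The libraries share depth and base composition with every gene, so this likeness is a description of 6 points.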

How the data were processed

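RNA of 6 libraries was measured as deposited raw counts of reads per gene, with no normalization or pooling. Per the submitters' processing notes the authors used Trimmomatic 0.39, fastp 0.23.2, STAR 2.7.9a and featureCounts of Subread 1.6.4 on hg38. The annotation and the strand setting are not given in the sources used. The deposited table also gave the gene length in bases, used for TPM.

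The analysis used edgeR 4.0.16 under R 4.3.3 with filterByExpr, TMM (factors 0.997 to 1.003), glmQLFit and glmQLFTest, two-sided, no covariate, all 6 libraries, Benjamini-Hochberg adjustment over 12107 genes, called under 0.05. Standard errors were derived from the F statistic. DESeq2 1.42.0 and limma-voom (limma 3.58.1) were alternatives, with other scalings, no filter, a replicate block, GC offsets, thinning and leaving out each library. GC came from the longest GENCODE release 29 transcript, found for 94.5% of tested genes. Every pair of libraries differed beyond sampling noise (chi-square per degree of freedom 1.48 to 6.81). The common biological coefficient of variation was 3.92%. The procedure was tested on simulated data.

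Positions and promoters are from RefSeq, GRCh38.p14, of the same assembly as hg38. The enzymes, lists and tests were chosen with earlier results of these data known. All 10 enzymes and ATF4 are named whatever their values. Of the pathway list, called genes, then up to 6 with the smallest unadjusted p under 0.05 and a mean of 5 CPM or more, and MTHFD1L, MTHFD2L, ALDH1L1, CBS and TYMS are named, while single results that this rule would also name are not reported here. The 3 genes nearest in profile are added. Protein sequences were not used here.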

Additional observations from a re-analysis of the deposited data

How the results depend on the processing

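No enzyme and no gene of the pathway list was called under any of the 15 alternatives with a gene test, and ASNS was positive in all 15, at 0.10 to 0.12 log2. With 1 enzyme higher at an unadjusted p under 0.05, leaving out 1 library gave 1 to 2, and the median of 0.034 log2 became 0.014 to 0.043. The share of all tested genes at that unadjusted p was not computed for the fits without 1 library. Signs turned in fold changes near 0: with library size alone SHMT1 was -0.0026 and MTHFD1 -0.0032, MTHFD1 was -0.0028 with GC-corrected offsets, -0.0029 with these and the replicate block together, and -0.0030 with thinned counts. Without control replicate 1 MTHFD1 was -0.0060 and MTHFD2 -0.0028, without control replicate 2 SHMT1 was -0.0078, and without control replicate 3 PHGDH was -0.014, SHMT1 -0.0055, SHMT2 -0.014 and CTH 0.053. Over the fits without 1 library the ranges were -0.014 to 0.081 for PHGDH, -0.0078 to 0.024 for SHMT1, -0.014 to 0.10 for SHMT2, -0.0060 to 0.0079 for MTHFD1, -0.0028 to 0.049 for MTHFD2, 0.013 to 0.095 for PSPH and -0.077 to 0.053 for CTH. The cause was not tested. Over all genes, 26 higher and 2 lower became 53 and 9 with no low-count filter and 50 and 9 with the replicate block. They became 82 and 17 with GC-corrected offsets, and 90 and 22 with these offsets and the block together. DESeq2 called 36 higher and 4 lower, and thinned counts gave 25 higher and 1 lower. Without 1 library, 16 to 50 were higher and 1 to 24 lower. Libraries with the same number had deviations that correlated at 0.16, -0.088 and 0.42, so the numbers are not taken to pair the libraries, and not every library correlated best with its own number. The order of levels was the same without any 1 library. Leaving out 1 library moved the isozyme differences over -0.0085 to 0.078 for SHMT2 over SHMT1, 0.0034 to 0.042 for MTHFD2 over MTHFD1 and 0.0075 to 0.043 for MTHFD1L over MTHFD1. RPKM and raw counts leave the order and these differences unchanged by construction. PSAT1 and ALDH1L2 are limited by depth to the 3-count floor.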
